A study of Mus musculus with 27 samples.

Results

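Hematopoietic progenitor cells (HPC) are the dividing blood cells between stem cells and the mature lineages. The H3K27ac and H3K4me1 peaks of HPC taken from mouse embryos (age E16.5, in embryonic days), on the B6 background, were set against each other. The 2 lists held 228168 peaks, of 901169 in the 8 lists of the study. A peak was put in the class with both marks when it overlapped a peak of the other mark by 1 bp or more, and was otherwise called H3K27ac alone or H3K4me1 alone. The study comprised 27 libraries, 3 of them inputs. The others were made by ChIPmentation, in which antibody-bound chromatin is tagged by a transposase. It gave 1 peak list for each group other than the inputs. Each of the 2 fetal HPC lists pooled 3 libraries. Lists outside the rule that were read at the same peaks were adult HPC H3K27ac and H3K4me1 (8 weeks of age, B6, 3 libraries each), fetal HSC H3K4me1 (hematopoietic stem cells, E16.5, B6, 3 libraries) and a second K27 set in fetal HPC (2 libraries). That second set is titled H3K27me3 but carries H3K27ac in its mark field, so its mark is not named here. The labels used here name no sorting markers for the cells, no genetic alteration and no treatment. The depth of the libraries is unknown, and pooling leaves no spread between replicates, so no test across samples was possible. Intervals in brackets are 95% intervals that cover counting error only.

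Acetylation of lysine 27 on histone H3 (H3K27ac) marks active promoters and active enhancers. Monomethylation of lysine 4 (H3K4me1) marks enhancers, whether active or not, and the flanks of active promoters, whose centre usually carries trimethylation of the same lysine instead. A distal element with H3K4me1 and no H3K27ac is often described as primed or poised, and one with both marks as active. A peak list shows where enrichment was called, so an alone peak is one with no called peak of the other mark and not one shown to lack it.

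The arrangement of the marks differed between gene starts, and so did the DNA just upstream of them. The 250 bases before 5 starts are printed as examples of the 3 arrangements, with each CG dinucleotide in capitals. They are from RefSeq (GRCm38.p6), on the coding strand. They were picked with their values known. At Fos, a transcription factor of the immediate early response, and at Csf2ra, the alpha chain of the GM-CSF receptor, the start lay inside an H3K27ac peak and outside any H3K4me1 peak. At the downstream start of Ikzf1, which encodes the lymphoid factor Ikaros, and at Emcn, a sialomucin of endothelium and stem cells, it lay inside both. At the upstream of 2 Lck starts, for a T cell kinase, it lay inside H3K4me1 without H3K27ac.
Fos: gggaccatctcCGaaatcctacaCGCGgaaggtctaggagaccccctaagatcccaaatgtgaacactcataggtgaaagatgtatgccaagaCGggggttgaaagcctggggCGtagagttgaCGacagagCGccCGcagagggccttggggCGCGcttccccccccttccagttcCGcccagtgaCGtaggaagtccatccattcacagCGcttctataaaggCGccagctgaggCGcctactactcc
Csf2ra: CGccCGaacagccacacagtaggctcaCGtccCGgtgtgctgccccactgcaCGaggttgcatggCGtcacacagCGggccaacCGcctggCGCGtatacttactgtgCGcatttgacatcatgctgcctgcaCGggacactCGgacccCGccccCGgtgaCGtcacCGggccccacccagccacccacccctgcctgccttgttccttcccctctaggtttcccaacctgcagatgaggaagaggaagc
Ikzf1: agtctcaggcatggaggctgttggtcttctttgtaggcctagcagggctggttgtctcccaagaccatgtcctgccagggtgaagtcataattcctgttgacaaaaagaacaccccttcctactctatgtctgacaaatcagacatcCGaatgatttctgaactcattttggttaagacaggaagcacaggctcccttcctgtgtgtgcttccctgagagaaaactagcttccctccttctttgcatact
Emcn: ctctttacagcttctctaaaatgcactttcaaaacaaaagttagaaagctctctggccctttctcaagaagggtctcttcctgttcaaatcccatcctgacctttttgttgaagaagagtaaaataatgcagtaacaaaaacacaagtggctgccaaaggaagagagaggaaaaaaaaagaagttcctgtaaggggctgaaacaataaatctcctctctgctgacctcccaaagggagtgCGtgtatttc
Lck: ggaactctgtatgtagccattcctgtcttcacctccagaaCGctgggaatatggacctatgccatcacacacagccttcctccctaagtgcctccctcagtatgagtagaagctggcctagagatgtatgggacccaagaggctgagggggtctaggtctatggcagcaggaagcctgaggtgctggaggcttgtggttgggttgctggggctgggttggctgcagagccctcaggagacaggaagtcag

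The Fos window, chr12:85473640-85473889 on the plus strand, held 15 CG dinucleotides, and the H3K27ac peak over its start had a fold of 23.5. Fold is the authors' enrichment over background for a peak, and it is used throughout only to describe or rank peaks within 1 list. The Csf2ra window, chr19:61228419-61228668 on the minus strand, held 17, with an H3K27ac fold of 22.7. The other 3 windows held 1 each. The Ikzf1 start after chr11:11689927-11690176 (plus strand) lay in an H3K27ac peak of fold 13.9 and an H3K4me1 peak of fold 9.48. The Emcn start after chr3:137340828-137341077 (plus strand) lay in peaks of fold 10.96 and 3.54. The Lck start after chr4:129573642-129573891 (minus strand) lay in an H3K4me1 peak of fold 11.2. The upstream start of Ikzf1, with 44 CG dinucleotides before it, lay in the same H3K27ac peak but in no H3K4me1 peak, so the 2 starts of this gene fell in different classes.

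Most acetylated sites carried H3K4me1, whereas most H3K4me1 sites carried no called acetylation. Of 50858 H3K27ac peaks, 38364 overlapped H3K4me1, which is 75.4% (75.1 to 75.8), and 12494 stood alone. Of 177310 H3K4me1 peaks, 34040 overlapped H3K27ac, 19.2% (19.02 to 19.38), and 143270 stood alone. These shares follow from the rule and from the lengths of the lists, since there were far more H3K4me1 peaks. In covered sequence, H3K27ac peaks with both marks took 39.99 Mb and those alone 5.04 Mb. H3K4me1 peaks with both marks took 84.3 Mb and those alone 116 Mb. The alone peaks were mostly not at the edge of the other mark. Their median distance to it was 7583.5 bp for H3K27ac alone and 7753 bp for H3K4me1 alone, and 21.0% and 10.5% lay within 1 kb of it.

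Peaks with both marks were wider and stronger on the median in each list. Their median width was 673 bp against 327 bp for H3K27ac alone, and 1765 bp against 534 bp for H3K4me1 alone, ratios of 2.06 (2.01 to 2.10) and 3.31 (3.25 to 3.37). A wide peak has more room to touch another peak, and the part of this in the width difference was not tested. Median fold was 3.60 against 2.93 in the H3K27ac list and 4.49 against 2.73 in the H3K4me1 list. Each list was split into 10 equal groups by the authors' −log10 p. From the strongest to the weakest group of H3K27ac peaks, the share with H3K4me1 went from 96.4% to 56.3%. From the strongest to the weakest group of H3K4me1 peaks, the share with H3K27ac went from 70.0% to 3.65%. Among the strongest 20000 peaks of each list set against each other, the ratios of width were 1.40 and 1.31.

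**Figure D1:**
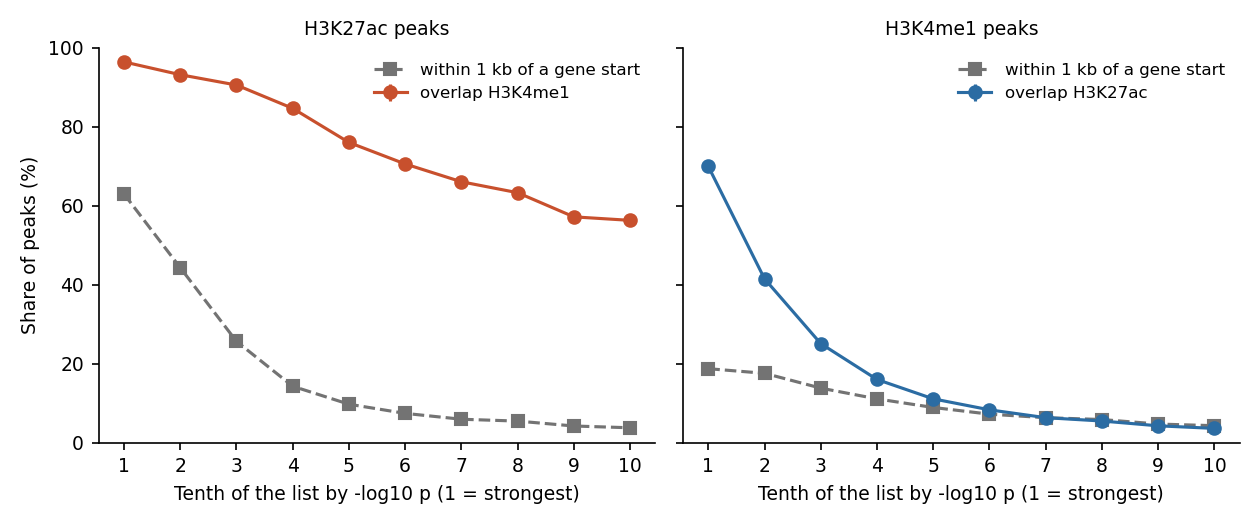
Share of fetal HPC peaks that overlap the other mark (circles) and share within 1 kb of a gene start (squares), in percent, by group of the H3K27ac list (left) and the H3K4me1 list (right), each ranked by −log10 p and split into 10 equal groups, with 95% Wilson intervals on the circles that are narrower than the symbols. The overlap goes from 96.4% to 56.3% for H3K27ac and from 70.0% to 3.65% for H3K4me1, and strong peaks of both lists are more often at starts.

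Over the whole lists, peaks with both marks were more often near gene ends. Within 1 kb of a start or end of a coding gene were 24.0% of H3K27ac peaks with both marks and 13.2% of H3K27ac alone, a difference of -10.8 points (-11.6 to -10.1). For the H3K4me1 list the shares were 33.5% with both marks and 8.28% alone, a difference of -25.3 points (-25.8 to -24.7), which was -13.2 points when 50% of the narrower peak had to overlap. More than 10 kb from either gene end lay 72.8% of H3K27ac alone and 62.8% of H3K4me1 alone, against 54.5% and 45.5% of the peaks with both marks. The fraction inside gene bodies varied less, from 61.7% of H3K4me1 alone to 72.0% of H3K27ac peaks with both marks.

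The H3K27ac difference turned with strength and with the overlap required. It was +18.9 points among the strongest 20000 peaks of each list and +14.5 points when 50% of the narrower peak had to overlap. In the first setting both lists were cut, so alone meant no overlap with the strongest 20000 H3K4me1 peaks. Of those H3K27ac peaks, 53.9% then had both marks, against 91.3% with the full H3K4me1 list. The difference was -20.2 points when H3K4me1 within 1 kb counted as both marks. Within the 10 groups by strength, 49.3% of H3K27ac alone and 23.2% of peaks with both marks lay within 1 kb of a gene start in the group ranked 3, and 26.1% and 12.2% in the group ranked 4. In the strongest group the shares were 58.7% and 63.2%, and in the weakest 2.98% and 4.44%. H3K27ac alone therefore held a small set of strong promoter peaks and a large set of weak distal ones. Of 11700 H3K27ac peaks with a fold of at least 5, 655 stood alone (5.60%, 5.20 to 6.03), and 383 of these 655 were within 1 kb of a start.

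At promoters the marks touched side by side and seldom coincided. Of 9071 H3K27ac peaks within 1 kb of a gene start, 85.5% overlapped H3K4me1, but the H3K27ac summit lay inside an H3K4me1 peak in 26.7% (25.8 to 27.6). Of 27537 H3K27ac peaks over 10 kb from gene ends and starts, 68.9% overlapped and 66.0% (65.4 to 66.5) had the summit inside. Counted at the base where transcription starts, 8196 of 21263 starts of coding genes lay in H3K27ac, and 429 of these also lay in H3K4me1, 5.23% (4.77 to 5.74). H3K4me1 covered 58.4% of the positions 1 kb upstream of the 8196 acetylated starts, 74.8% of those 1 kb downstream and 78.7% of those 1.5 kb downstream. Around distal H3K27ac summits it had the opposite shape, with 66.0% at the summit and 51.6% and 51.5% at 1 kb on either side.

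**Figure D2:**
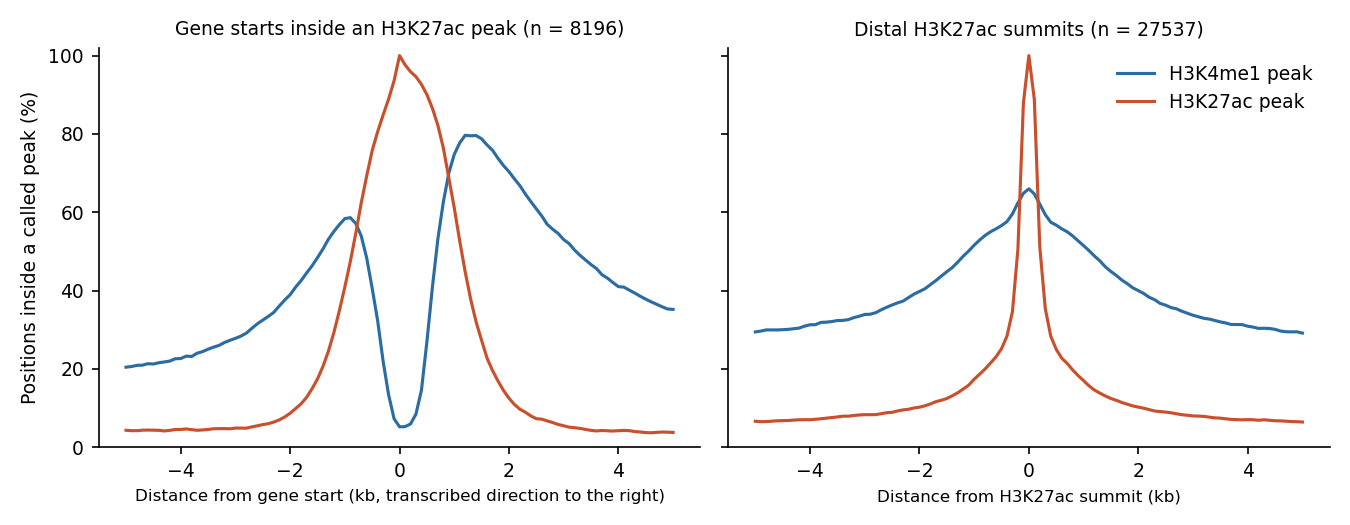
Share of positions inside a called H3K4me1 peak (blue) or H3K27ac peak (orange), in percent, by distance in kb from 8196 gene starts inside an H3K27ac peak (left, transcribed direction to the right) and from 27537 H3K27ac summits over 10 kb from gene ends and starts (right). H3K4me1 falls to 5.23% at the acetylated starts between flanks of 58.4% at 1 kb upstream and 74.8% at 1 kb downstream, and is at its highest, 66.0%, at distal summits. The H3K27ac value of 100% at the centre follows from how the positions were chosen.

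Of the 7767 starts in H3K27ac without H3K4me1, H3K4me1 lay within 2 kb on both sides of 6231, or 80.2% (79.3 to 81.1). It lay downstream only at 1173 (15.1%), upstream only at 258 (3.32%) and on neither side at 105 (1.35%). Of the printed examples, Fos had H3K4me1 on both sides, and Csf2ra was of the rare kind with it on neither. Kit, the stem cell factor receptor, was of the upstream-only kind. Its start on chr5 lay in an H3K27ac peak at chr5:75574876-75578185 of fold 4.52, with H3K4me1 at chr5:75573500-75574218 before it and, beyond 2 kb, at chr5:75577389-75585077 inside the gene, of fold 2.63 and 7.22. Bcl11a, a zinc finger factor of lymphoid and stem cells that silences fetal globin, held the widest H3K27ac-alone peak. That peak, chr11:24076504-24081968, was 5465 bp wide with a fold of 8.45 and covered the start. H3K4me1 peaks at chr11:24072576-24075654 and chr11:24082496-24091655 flanked it, the nearer at 528 bp. The next H3K27ac peak, at chr11:24082126-24083927, overlapped the second of these, so neighbouring acetylated peaks at this promoter fell in different classes.

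CG content was highest at starts in H3K27ac only and alike in the other arrangements on the median. The median number of CG dinucleotides in the 250 bases upstream was 18 at starts in H3K27ac only, 4 at starts in both marks, 4 at starts in H3K4me1 only (1093), 5 at starts in neither (11974) and 10 over all starts. Starts with 0 to 4 CG were in H3K27ac in 8.05% of 7170 cases, and 280 of those 577 acetylated starts were also in H3K4me1, 48.5% (44.5 to 52.6). With 5 to 9 CG, 32.8% were acetylated and 10.6% of these were in H3K4me1. With 20 or more CG, 63.5% of 5048 were acetylated, and 2 of those 3207 starts were in H3K4me1, 0.0624% (0.0171 to 0.227). H3K4me1 was near these CG-rich starts nonetheless, covering 82.6% of the positions 1.5 kb downstream.

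**Figure D3:**
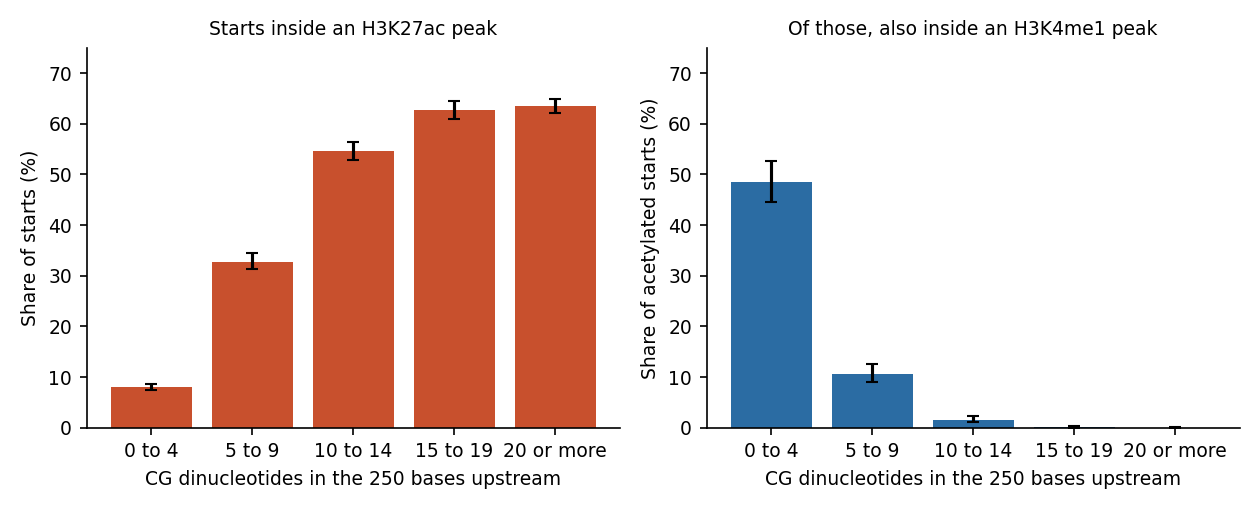
Share of gene starts inside a fetal HPC H3K27ac peak (left) and, of those, share also inside an H3K4me1 peak (right), in percent with 95% Wilson intervals, by the number of CG dinucleotides in the 250 bases upstream. Acetylation goes from 8.05% to 63.5% as CG rises, and the share of acetylated starts inside H3K4me1 goes from 48.5% to 0.0624%.

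Short motifs were counted in the same 250 bases on both strands. GGGCGG, the GC box bound by Sp1-type factors, was in 62.01% of starts in H3K27ac only, 15.9% of starts in both, 18.7% of starts in H3K4me1 only and 42.6% of all starts. CCGGAAG, the core of many ETS sites, was in 18.3%, 3.96%, 1.74% and 8.98%. Both motifs contain a CG, and the part of CG content in these shares was not tested. CCAAT differed little, at 36.6%, 29.8%, 32.3% and 35.4%. TATAAA was in 5.14%, 14.7%, 13.8% and 11.6%, and AGATAA, the core recognised by GATA factors, in 4.76%, 14.5%, 12.6% and 8.81%. A match is a description of the letters and does not show binding.

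The classes also differed in lists that had not been used to form them. Of H3K27ac peaks with both marks, 74.7% (74.3 to 75.2) overlapped adult HPC H3K27ac, against 18.6% (17.9 to 19.3) of H3K27ac alone. Adult H3K4me1 covered 90.2% and 10.8%, a difference of -79.4 points (-80.0 to -78.8). Fetal HSC H3K4me1 covered 95.4% and 12.8%, a difference of -82.6 points (-83.2 to -82.0). Sites without H3K4me1 in fetal HPC were thus mostly without a called H3K4me1 peak in fetal HSC and adult HPC as well. Width and strength moved with these values. H3K27ac peaks were split into 4 equal groups from narrow to wide. In the narrowest, adult H3K27ac overlapped 41.1% of peaks with both marks and 6.52% alone, and in the next 55.9% and 14.6%. The wider groups had 82.4% and 56.0%, then 98.8% and 99.4%, so the widest showed no lower share alone. By strength, the shares were 99.9% and 98.4% in the strongest of 10 groups and 45.9% and 5.40% in the weakest. For adult H3K4me1 the widest group had 99.2% and 59.5%. Of the 655 H3K27ac-alone peaks with a fold of at least 5, 635 overlapped adult H3K27ac, 339 adult H3K4me1 and 142 fetal HSC H3K4me1. All 112 with a fold of at least 10 overlapped adult H3K27ac, and 65 of them adult H3K4me1. With both lists cut to their strongest 20000 peaks, the differences were -15.0 points for adult and -19.7 points for fetal HSC H3K4me1. Most H3K27ac peaks that were alone in that setting overlapped H3K4me1 in the full list.

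H3K4me1 peaks with both marks overlapped adult HPC H3K27ac in 82.5% (82.1 to 82.9), and H3K4me1 alone in 14.9% (14.7 to 15.1), a difference of 67.6 points (67.2 to 68.0). The latter are 21310 sites with H3K4me1 and no called acetylation in fetal HPC that had an H3K27ac peak in adult HPC. The difference was present within each range of width. With H3K4me1 peaks split into 4 equal groups from narrow to wide, the shares with both marks and alone were 57.2% and 6.27%, 67.2% and 9.69%, 79.2% and 17.4%, and 88.5% and 35.9%. With 10 equal groups by strength they were 90.9% and 46.3% in the strongest, and in the weakest 55.2% and 6.31%. Adult H3K4me1 covered 90.9% of the peaks with both marks and 53.2% of H3K4me1 alone, and fetal HSC H3K4me1 covered 95.1% and 71.1%. With both lists cut to their strongest 20000 peaks, the adult H3K27ac difference was 39.9 points. In that setting 47.9% of the H3K4me1 peaks had both marks, against 67.9% with the full H3K27ac list.

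The second K27 set, from the same fetal cell type, overlapped few peaks of any class. Most of its peaks were weak calls, since 7097 of its 54339 peaks had an authors' −log10 q of at least 5. The set touched 4375 H3K4me1-alone peaks, 3.05% (2.97 to 3.14), and 77 H3K4me1 peaks with both marks, 0.226%. The difference was 2.83 points (2.72 to 2.93), and 0.973 points among the strongest 20000 peaks of each list. It touched 210 H3K27ac-alone peaks, 1.68%, and 35 H3K27ac peaks with both marks, 0.0912%. None of the 8196 acetylated starts lay in it, against 54 of the 1093 starts in H3K4me1 only, 4.94%.

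**Figure D4:**
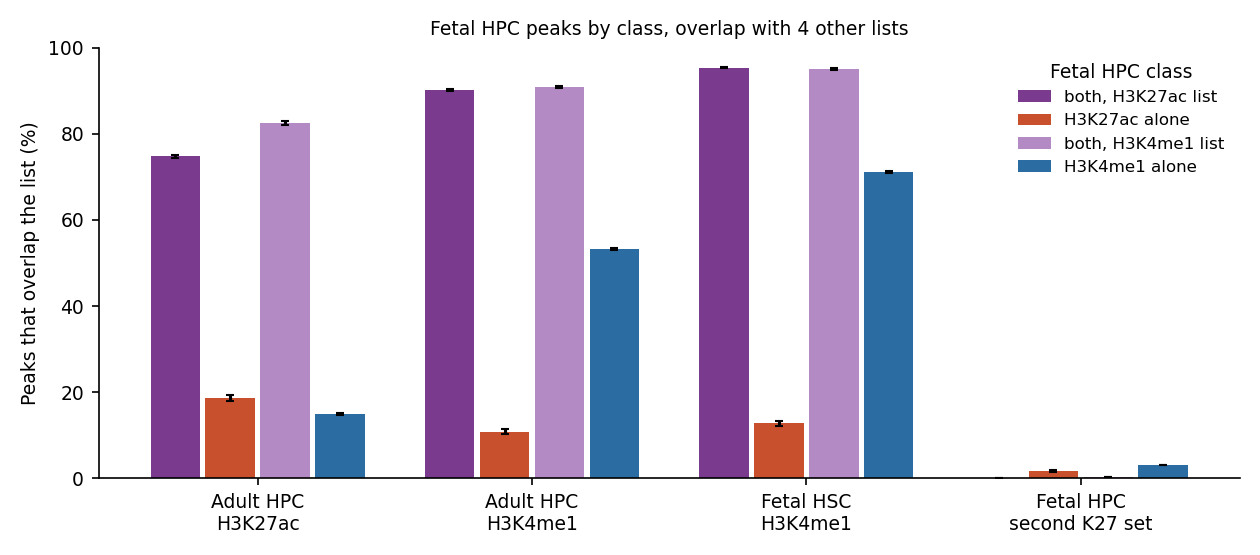
Share of the 4 classes of fetal HPC peaks that overlap each of 4 other lists, in percent with 95% Wilson intervals. Peaks with both marks, in either list, are at 74.7% to 95.4% for the 3 lists of H3K27ac and H3K4me1, H3K27ac alone is at 10.8% to 18.6%, and all classes are at most 3.05% for the second K27 set.

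Gene lists were read at gene ends, within 1 kb of the start or end of a gene. Of 21887 coding genes, 41.8% had an H3K27ac peak with both marks there, 4.78% had H3K27ac alone and no such peak, 19.0% had H3K4me1 with no H3K27ac peak, and 34.4% had neither. Of the 253 genes in 18 lists, 130 had both marks there, and 70 when the strongest 20000 peaks of each list were used. The share over all coding genes was not computed under other settings, so list counts under them have no such share beside them. Housekeeping genes had both marks in 23 of 24 cases, 15 with the strongest 20000 peaks and 12 with an overlap of 50%. Cell cycle genes had both marks in 18 of 20, and 5 with the strongest 20000 peaks. The exceptions had H3K4me1 without H3K27ac and were Ywhaz, a 14-3-3 protein, and the cell cycle inhibitors Cdkn1a and Cdkn1c. Interferon and antigen presentation genes had both marks in 15 of 19 (6 with the strongest 20000 peaks and 9 with an overlap of 50%), among them Irf1, B2m and Tap1. Of the rest, Ciita, Nlrc5 and H2-Ab1, had H3K4me1 without H3K27ac. The first is the master regulator of MHC class II, the second a regulator of class I and the third a class II chain. Inflammatory and immediate early genes had both marks in 9 of 12 each, and 5 and 4 with the strongest 20000 peaks. At their ends Il1b, Il6 and Cxcl2, all secreted inflammatory mediators, had H3K4me1 without H3K27ac.

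Genes of stem cell identity had both marks at an end in 14 of 22 (9 with the strongest 20000 peaks), against 41.8% of all coding genes. Those with both marks included Kit, Runx1, Meis1, Mecom and Tal1. Prdm16, Hlf and Mllt3, regulators of stem cell maintenance, had H3K27ac alone within 1 kb of an end. The Prdm16 start itself lay in H3K27ac only. The Hlf start and the upstream Mllt3 start lay in neither mark, and the downstream Mllt3 start in H3K4me1 only. Gata2, Erg, Lmo2, Gfi1b and Procr had H3K4me1 without H3K27ac at their ends. Gata2, a core transcription factor of stem and progenitor cells, had 2 peaks with both marks nearest to it elsewhere. Erg, an ETS factor, had an internal start inside an H3K27ac peak of fold 20.2, since gene ends leave out starts within a gene. Of the 12 genes of the fetal stem cell programme, 7 had both marks (4 with the strongest 20000 peaks and 3 with an overlap of 50%), namely Lin28b, Hmga1, Hmga2, Arid3a, Igf2bp1, Igf2bp2 and Igf2bp3. Lin28b blocks maturation of let-7 miRNAs and is a marker of fetal blood cells. Its strongest H3K27ac peak, chr10:45467081-45470948, was 3868 bp wide with a fold of 14.3, covered the start given for Lin28b in the promoter table and overlapped an H3K4me1 peak of fold 6.59. The H3K27ac peak at the upstream end of the gene body, chr10:45485232-45486510, had a fold of 3.93. None of the 13 H3K4me1-alone peaks nearest to Lin28b overlapped adult H3K27ac, against 15.2% of such peaks over all coding genes. Igf2 and Gpc3 had neither mark at their ends.

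Lineage genes were read against 41.8% of all coding genes with both marks at an end and 19.0% with H3K4me1 without H3K27ac. Myeloid genes had both marks in 8 of 20, near the share of all genes, among them Spi1, Cebpb, Mpo and Prtn3. Csf2ra had H3K27ac alone. Another 7, including the factors Cebpa, Cebpe and Irf8 and the granule protease Elane, had H3K4me1 without H3K27ac. Cebpa, needed to form granulocyte and monocyte progenitors, had 19 H3K4me1-alone peaks nearest to it and 1 peak with both marks, of fold 2.59. An H3K4me1 peak at chr7:35123811-35129811, downstream of the gene, was 6001 bp wide. Erythroid and megakaryocyte genes had both marks in 8 of 18, also near the share of all genes (5 with the strongest 20000 peaks or an overlap of 50%). Among these 8 were Zfpm1, Nfe2 and Pf4. Klf1, Epor, Ank1, Gp1bb and Vwf were among those with H3K4me1 without H3K27ac. Gata1, the central erythroid factor, had neither at its ends and 2 H3K4me1-alone peaks inside it. Lymphoid genes had both marks in 4 of 15 (Flt3, Ikzf1, Rag2 and Satb1), 2 with the strongest 20000 peaks and 7 with a 5 kb window, and H3K4me1 without H3K27ac in 7, including Rag1, Dntt, Il7r and Tcf7.

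Developmental regulators of other tissues, usually silent in blood, had both marks in 0 of 28 and H3K4me1 without H3K27ac in 22, among them Pax6, Sox2, Otx2 and Olig2. The same shares over all coding genes were 41.8% and 19.0%. The second K27 set had a peak at the ends of 24 of the 28, against 12.9% of coding genes. Of 247 H3K4me1-alone peaks nearest to these genes, 155 overlapped the second K27 set, at 25 of 28 members, against 9.77% of coding genes with any such peak. Pax6, an eye and brain factor, had 18 H3K4me1-alone peaks, 14 of them in the second K27 set and 0 in adult H3K27ac. For adult H3K27ac the share of such peaks over all coding genes was 15.2%.

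Markers of other cells were read in the same way, to check the label. Over all coding genes, 41.8% had both marks at an end and 34.4% had neither. Hepatocyte markers had both marks in 4 of 10 (Alb, Apoa1, Apoa2 and Foxa3), near that first share. The peaks had a fold of 3.93 at Alb and 3.51 at Apoa1. No start given for these 4 genes in the promoter windows lay inside an H3K27ac peak. The starts of Alb and Apoa1 also had no H3K4me1 within 2 kb on either side. Neither mark was at the ends of 6, Afp and Ttr included. With the strongest 20000 peaks, or an overlap of 50%, 2 hepatocyte markers had both marks. Endothelial markers had both in 5 of 8 (Emcn, Eng, Kdr, Pecam1 and Tie1), several of which stem cells also express. Both marks were at 0 of 7 macrophage markers, 0 of 7 stromal markers, 2 of 6 B cell markers, 2 of 8 T and NK cell markers and 3 of 6 mast cell and basophil markers, of which 1 is Kit. A 5 kb window gave 2 macrophage, 1 stromal and 4 T and NK cell markers, and the strongest 20000 peaks gave 0 B cell markers. The part of other cells in any result was not tested.

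**Figure D5:**
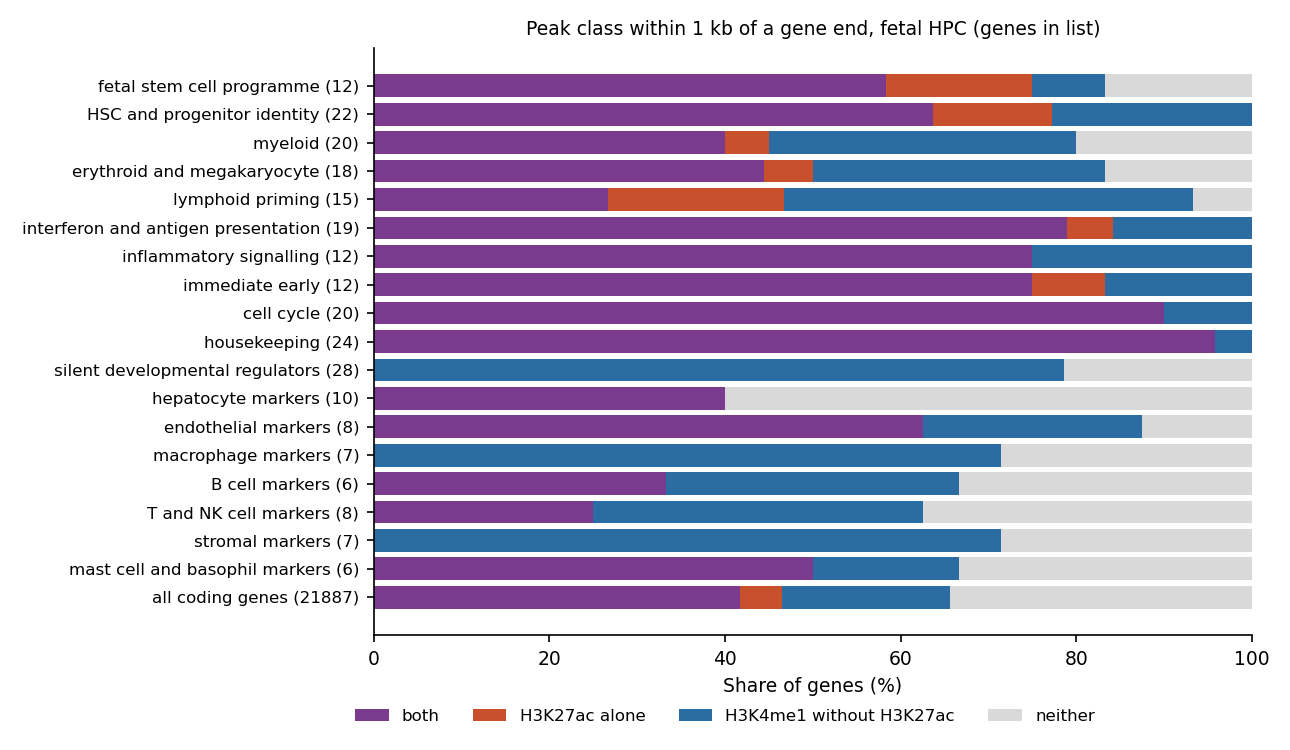
Share of the genes in each list, in percent, with an H3K27ac peak of both marks (purple), H3K27ac alone (orange), H3K4me1 without H3K27ac (blue) or neither (grey) within 1 kb of a gene end, with the number of genes in brackets. Housekeeping genes are at 95.8% and cell cycle genes at 90.0% with both marks, and silent developmental regulators at 78.6% with H3K4me1 without H3K27ac. With the strongest 20000 peaks of each list, not drawn, the counts with both marks were 15 of 24 housekeeping and 5 of 20 cell cycle genes. With an overlap of 50% of the narrower peak, also not drawn, they were 12 and 13. No share over all coding genes was computed under these settings.

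Acetylation in adult HPC at sites with H3K4me1 alone in fetal HPC was counted by nearest gene within 100 kb. Of 132361 such peaks assigned to coding genes, 20088 overlapped adult H3K27ac, 15.2%, at 34.7% of coding genes. For myeloid genes the count was 61 of 172 peaks, 35.5%, at 15 of 20 members, and for interferon and antigen presentation genes 42 of 134, 31.3%, at 11 of 19. At Cebpb, a factor of emergency granulopoiesis, 21 of 33 such peaks overlapped adult H3K27ac. The count was 12 of 30 at Irf8, 7 of 19 at Cebpa, 16 of 20 at Dntt, which encodes the enzyme that adds bases at antigen receptor joints, 12 of 17 at Flt3 and 17 of 25 at Zfpm1. Most of the 61 myeloid peaks were thus those of Cebpb, Irf8 and Cebpa. The share was also above that of all genes for inflammatory (27.2%), immediate early (26.9%) and housekeeping genes (25.4%). The same held for erythroid and megakaryocyte (22.8%) and lymphoid genes (22.4%). Among markers it was higher for hepatocytes (7 of 16 peaks, 43.8%), endothelium (22.4%), mast cells and basophils (18 of 81, 22.2%) and T and NK cells (8 of 37, 21.6%). Genes of stem cell identity (139 of 840 peaks) and the cell cycle (15.3%) were near the share of all genes. Macrophage (10 of 59, 16.9%), B cell (7 of 58, 12.1%) and stromal markers (7 of 53, 13.2%) were also near it. Marker lists held few peaks, so small differences from all genes are not read from them. For the fetal stem cell programme the share was 22 of 240, 9.17%, and for silent developmental regulators 6 of 247, 2.43%. Peaks of 1 gene are neighbours and not independent, and the adult H3K27ac list was the longer one, with 63108 peaks.

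The genes with the most peaks had bodies of 182 to 1302 kb. Peaks with both marks were most numerous at Foxp1 (85), a forkhead factor of lymphocytes, and at Etv6 (82), an ETS repressor that adult stem cells need, followed by Arid1b (79), Sgms1 (75) and Pde4d (65). Per length Etv6 led these 5, with 34.5 peaks with both marks per 100 kb of gene body, against 4.07 for Pde4d. Etv6 had 34 H3K4me1-alone peaks and 0 H3K27ac-alone peaks. H3K4me1 alone was most numerous at Pde4d (215), Mecom (184), Foxp1 (149), Gse1 (145) and Foxn3 (133). Mecom, a zinc finger factor of long-term stem cells, had 31.9 such peaks and 10.4 peaks with both marks per 100 kb, and 6 of its 184 H3K4me1-alone peaks overlapped adult H3K27ac. H3K27ac alone was most numerous at Nbas (24), Inpp4b (22), Pcsk5 (22), Utrn (22) and Herc2 (20). Nbas and Herc2 had 3 and 2 peaks with both marks. Over all coding genes, 50.7% were nearest to a peak with both marks and 23.9% to an H3K27ac-alone peak.

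The strongest and widest peaks differed in kind between the classes. With both marks, the highest folds were 57.6 at Eapp, 55.4 at Sirt4 and 53.3 at a site 30135 bp from Arhgap5. The widest was 17105 bp, chr6:52215918-52233022, over Hoxa10, a homeobox gene of immature blood cells. Next were 12927 bp at a site 95755 bp from Kdr and 12548 bp at Egfl7, the host gene of the endothelial miR-126. In H3K27ac alone, the highest folds were 40.2 at a site 45447 bp from Ubash3b, 35.7 at a site 44184 bp from Zfp958 and 32.1 inside Pfdn4. The first of these, chr9:41207139-41208222, was 1352 bp from H3K4me1 and had an adult H3K27ac peak but no H3K4me1 peak in adult HPC or fetal HSC. The Pfdn4 peak lay 27 bp from an H3K4me1 peak. After Bcl11a, the widest were at Mycn (4496 bp) and Rhof (4130 bp). In H3K4me1 alone, the highest fold was 14.7 at Cbx2, a Polycomb subunit, at chr11:119031041-119034264. The widest was 17356 bp, chr9:61374605-61391960, inside Tle3, a Groucho-type corepressor, and lay 393 bp from H3K27ac. The Tle3 peak overlapped adult H3K27ac, and the Cbx2 peak did not.

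The adult lists gave higher overlap. Of adult HPC H3K27ac peaks, 86.9% (86.6 to 87.1) overlapped adult H3K4me1, against 75.4% in the fetal lists. Of adult H3K4me1 peaks, 38.1% (37.8 to 38.3) overlapped H3K27ac, against 19.2%. List lengths differ between the ages, and with the strongest 20000 peaks of each list the shares were 56.9% against 53.9% and 54.6% against 47.9%. At promoters the summit measure was alike, with 26.3% (25.4 to 27.1) of adult and 26.7% (25.8 to 27.6) of fetal H3K27ac summits near starts inside H3K4me1. Over 10 kb from gene ends and starts, the inside of long genes included, it was 79.3% in the adult and 66.0% in the fetal lists. Among acetylated starts, 1565 of 10818 adult ones lay in H3K4me1, 14.5% (13.8 to 15.1), against 5.23% of the fetal ones. The spread between libraries behind these differences is not known.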

How the data were processed

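ChIPmentation libraries of fetal HPC were mapped to mm10 (GRCm38) by Novoalign and MACS2 called the peaks, per the submitters' processing notes. The sources used here do not give versions, threshold, filter or the use of the 3 input libraries. The authors deposited 1 filtered narrowPeak list per group, pooled over libraries, with a fold (ratio) over background, a −log10 p and a −log10 q for each peak. The authors' values were used within 1 list only.

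Peaks were intersected in Python 3.11.15 (pandas 2.3.3, NumPy 2.4.6, SciPy 1.17.1), and the intersection code was checked on simulated intervals. Peaks went to the nearest of 21887 RefSeq coding genes (GRCm38.p6) within 100 kb of its body, so a peak at the end of a gene can belong to a neighbour. That table gave no strand. The RefSeq promoter windows gave 21263 starts of 17492 genes, and chromosome 18, which has none there, was left out of values measured from starts. Peaks at starts of other genes without a window were counted as not near a start. Shares carry 95% Wilson intervals and differences Newcombe intervals. Ratios of median widths carry intervals from the order statistics of both medians.

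The 18 gene lists (253 names, all matched) and the members were chosen with earlier results of these data known. The naming rule took, per class, the 5 genes with the most peaks, the 3 highest folds, the 3 widest peaks and up to 3 members per list with the most peaks. Other list members named by mark, Lin28b, Gata2, Gata1, Alb, Dntt and Flt3 included, the 5 printed promoters and the miRNAs were picked with their values known.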

Additional observations from a re-analysis of the deposited data

How the results depend on the processing

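Values below are the shares, differences in points and width ratios of the report under other settings. With the strongest 20000 peaks of each list, 53.9% of H3K27ac peaks had H3K4me1 and 47.9% of H3K4me1 peaks had H3K27ac. Both lists were cut there, so alone meant no overlap with the strongest 20000 peaks of the other mark. The gene-end difference of H3K27ac alone turned to 18.9 and that of H3K4me1 alone was -22.8. Width ratios were 1.40 (H3K27ac) and 1.31 (H3K4me1), the adult H3K27ac difference 39.9, adult H3K4me1 -15.0, fetal HSC H3K4me1 -19.7 and the second K27 set 0.973, and 70 list members in place of 130 of 253 had both marks at an end. With −log10 q of at least 5, the same values were 77.7%, 21.1%, -9.50, -26.7, 2.39, 2.87, 68.5, -77.1 and -79.7. With an overlap of 50% of the narrower peak they were 66.1%, 14.8%, 14.5 (turned), -13.2, 1.52, 3.38, 60.3, -56.2 and -61.9. With the other mark within 1 kb they were 80.6%, 27.7%, -20.2, -22.0 and, for the H3K4me1 width ratio, adult H3K27ac, adult H3K4me1 and fetal HSC H3K4me1, 2.35, 54.4, -83.2 and -81.1. Without peaks under 200 bp, the first share was 76.2%. A 5 kb window gave gene-end differences of -15.7 and -22.3, and gene starts in place of ends, added after the data were seen, gave -9.92 for H3K27ac alone. No share over all coding genes was computed under these settings. Of 108 counts per list, 87 stayed within 1.5 times. The cause of these changes was not tested. No paired analysis was possible because each list pools its libraries, and for the same reason no replicate could be left out. Depth per library is unknown, so how far weak peaks were missed could not be measured.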

Other observations

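MicroRNA hairpins add a view of the classes at short genes. Of 1005 hairpins in the RefSeq table (GRCm38.p6), 71 lay in an H3K27ac peak with both marks, 11 in H3K27ac alone and 93 in H3K4me1 alone. Adult HPC H3K27ac covered 67 of the 71 and 12 of the 93. The mature strands of 6 blood microRNAs are shown with the seed, bases 2 to 8, in capitals, since these bases set the targets. All 6 seeds differ.
mmu-miR-142a-3p: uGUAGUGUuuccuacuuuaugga
mmu-miR-155-5p: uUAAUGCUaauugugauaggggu
mmu-miR-21a-5p: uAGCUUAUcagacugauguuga
mmu-miR-27a-3p: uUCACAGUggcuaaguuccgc
mmu-miR-223-3p: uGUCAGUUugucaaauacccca
mmu-miR-130a-3p: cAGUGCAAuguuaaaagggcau
The hairpins of miR-142a, miR-155, miR-21a and miR-27a lay in H3K27ac peaks with both marks. The peak over Mir21a had a fold of 28.8, that over Mir142, a hematopoietic microRNA, 9.12, that over Mir27a 7.45 and that over Mir155, which regulates inflammation, 4.18. The Mir142 hairpin itself lay outside H3K4me1, and Mir155 had no adult H3K27ac peak. Mir223, a granulocyte microRNA on chromosome X, lay in H3K4me1 alone, with a fold of 3.78, and in an adult H3K27ac peak of fold 8.37. Mir130a lay in H3K4me1 alone, with a fold of 5.92 and no adult H3K27ac.

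Chromosome X held 285 H3K27ac-alone peaks, 2.28% (2.03 to 2.56), against 284 H3K27ac peaks with both marks, 0.740% (0.659 to 0.831). For H3K4me1 the shares were 1.66% alone and 0.955% with both marks.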
